A study of Homo sapiens with 16 samples.

Results

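The E2F family comprises the transcription factors E2F1 to E2F8, which set the expression of cell cycle genes, and the pocket proteins RB1 and RBL1 (p107), which bind E2F proteins and hold their target genes off. The 8 E2F genes, RB1 and RBL1 were taken by gene symbol, and all 10 were found among the 62069 Ensembl identifiers measured. Symbols were joined to the identifiers through the annotation. The rule holds no measured value, but the genes were chosen with earlier results of these data known.

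RNA was sequenced from IMR90 ER:RAS cells, human lung fibroblasts that carry an inducible RAS fusion, in which 4-hydroxytamoxifen (4OHT) activates RAS and leads to oncogene-induced senescence. The series asked how this senescence transcriptome differs when AHCY, the enzyme that hydrolyses S-adenosylhomocysteine, is knocked down. All cells were grown for 6 days and were at passage 15, and the labels list 6 days after 4OHT for every group, EV included. Whether the line is a single clone is not stated in the labels. The EV group is labelled non-senescent and the EV_4OHT group senescent, and only the latter was given 4OHT, at 100 nM. The groups shAHCY_2 and shAHCY_4 carried 1 of 2 hairpins against AHCY each and also received 100 nM 4OHT. Each group had 4 libraries, numbered 49 to 52 (EV), 53 to 56 (EV_4OHT), 57 to 60 (shAHCY_2) and 61 to 64 (shAHCY_4). No group here had a hairpin without 4OHT, and none was given 4OHT without the fusion, so effects of the hairpins before RAS activation and of 4OHT itself cannot be told apart from the effects below. Whether a group's libraries are separate cultures is not stated in the labels, so p-values cover only library-to-library spread, possibly technical.

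In a proliferating cell, cyclin D and cyclin E kinases phosphorylate RB1 and its relatives, which frees the activating E2F proteins to switch on genes for DNA replication. E2F1, E2F2 and E2F3 are the activators, E2F4, E2F5 and E2F6 act mainly as repressors, and E2F7 and E2F8 are atypical repressors that need neither a DP partner nor a pocket protein. In senescent fibroblasts, RB1 is known for holding E2F target genes in a silent state. Several E2F and pocket protein genes are themselves E2F targets.

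The promoters are shown for the genes whose RNA changed most and which had a usable window, together with E2F2. They are the 100 bases before the RefSeq transcript start in GRCh38.p14, 5′ to 3′ on the gene's strand. The counts were made on another build, hg19, so these positions belong to the sequence table alone. Capitals mark, for E2F1, E2F2 and RBL1, the words TTTCCCGC, TTTGGCGC, TTTCGCGC and TTTGCCGC, which are forms of the E2F site, on either strand. For E2F7 they mark CCAAT (written ATTGG on the shown strand) and GGGCGG (written CCGCCC).

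E2F1, chr20:33686386-33686485, minus strand: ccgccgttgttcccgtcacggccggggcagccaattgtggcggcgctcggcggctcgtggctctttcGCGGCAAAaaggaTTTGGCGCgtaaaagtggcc
E2F2, chr1:23531234-23531333, minus strand: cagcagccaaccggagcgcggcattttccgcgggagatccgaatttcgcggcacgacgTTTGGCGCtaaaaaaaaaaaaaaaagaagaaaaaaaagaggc
RBL1, chr20:37095998-37096097, minus strand: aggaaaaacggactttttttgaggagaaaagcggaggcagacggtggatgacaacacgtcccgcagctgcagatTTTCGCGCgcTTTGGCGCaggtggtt
E2F7, chr12:77065570-77065669, minus strand: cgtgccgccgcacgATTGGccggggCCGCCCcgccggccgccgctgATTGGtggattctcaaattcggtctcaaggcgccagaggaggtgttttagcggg

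The RBL1 promoter held TTTCGCGC starting 26 bases and TTTGGCGC starting 16 bases before the transcript start. E2F1 held TTTGGCGC starting 20 bases before it and TTTGCCGC on the other strand at 33 bases, and E2F2 held TTTGGCGC at 42 bases. Of all 35116 RefSeq windows of 300 bases, 3.315% held 1 of these 4 words on either strand, and 1.15% held one within the last 100 bases before the start. The E2F7 window held none of the 4 words, 4 CCAAT words and 3 GGGCGG words; 2 of the CCAAT words and 1 of the GGGCGG words lie within the 100 bases shown. The E2F1 window also held 3 CCAAT and 6 GGGCGG words, which are not marked above, so these words do not set E2F7 apart. CCAAT occurred in 34.614% of all windows and GGGCGG in 44.954%. These matches describe letters only. The more upstream of the 2 E2F3 windows held TTTCCCGC on the other strand, 53 bases before its start. E2F4 and E2F6 held GGGCGG and none of the other words. E2F5 and E2F8 were not in the sequence table, and the RB1 window lay 172724 bases from its most upstream annotated start, so it is not shown.

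Levels below are CPM (counts scaled to library size) with TMM factors, and differences are log2 fold changes ± standard error from edgeR's quasi-likelihood test, with p-values adjusted by Benjamini-Hochberg across the 13526 genes tested. A gene was called at an adjusted p under 0.05. Total counts ran from 8236199 to 18235787 per library, and 11903 to 13530 genes had at least 10 counts. Library 59 of shAHCY_2 stood apart from its group, with a root mean square deviation in log2 CPM of 0.553 against 0.409 to 0.471 in the other 15 libraries, and its deviations followed GC content (Spearman rho across genes of -0.535, against -0.266 to 0.281 elsewhere). AHCY averaged 114 ± 11.3 CPM in EV (SD, n = 4), 164 ± 8.08 in EV_4OHT, 18.5 ± 4.54 in shAHCY_2 and 14.7 ± 2.19 in shAHCY_4. All 8 fibroblast markers listed, such as COL1A1 and DCN, were present, with a summed level of 10596 to 12271 CPM in EV and 4690 to 5319 CPM in the 12 libraries given 4OHT. The 6 epithelial markers summed to 88.7 to 103 CPM in EV and 45.1 to 59.8 CPM with 4OHT, with KRT5 at 0 in EV, shAHCY_2 and shAHCY_4. Of the 4 tested in EV_4OHT against EV, 1 was called lower (KRT19, -5.14 ± 0.17) and 1 higher (KRT18, 0.39 ± 0.10). The part of these shifts in the results below was not tested. Of the leukocyte markers CD3E, and of the endothelial markers PECAM1 and CDH5, had no counts in any library. The 6 leukocyte markers summed to at most 1.34 CPM in any library, and the 5 endothelial markers to at most 7.40 CPM. PTPRC, a leukocyte marker with no counts in EV, was called higher in EV_4OHT than in EV (edgeR, adjusted p = 0.00333). PTPRC passed the low-count filter only through libraries given 4OHT, so this p-value adds no support beyond the counts. Of the endothelial markers, KDR was higher (5.06 ± 1.10, adjusted p = 5e-04) and TEK lower (-0.59 ± 0.21, adjusted p = 0.0219). In bulk RNA, fewer cells of a type and less RNA per cell cannot be told apart.

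Senescence came with a change in the balance of the family. E2F7 rose about 4-fold and E2F4 and E2F6 rose modestly, while E2F1, E2F8, RB1 and RBL1 fell. E2F3 and E2F5 were not called, and E2F2, with few counts, did not pass the low-count filter. Thus 3 of the 9 members tested were higher and 4 lower, where 26.7% of all genes tested were higher and 26.8% lower. E2F8, among the 4 lower, passed that filter only through its EV counts. Since 53.5% of all genes tested were called, and 48% had ranges that did not overlap between the groups, the number of members called is not far from what any genes show here.

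**Figure D1:**
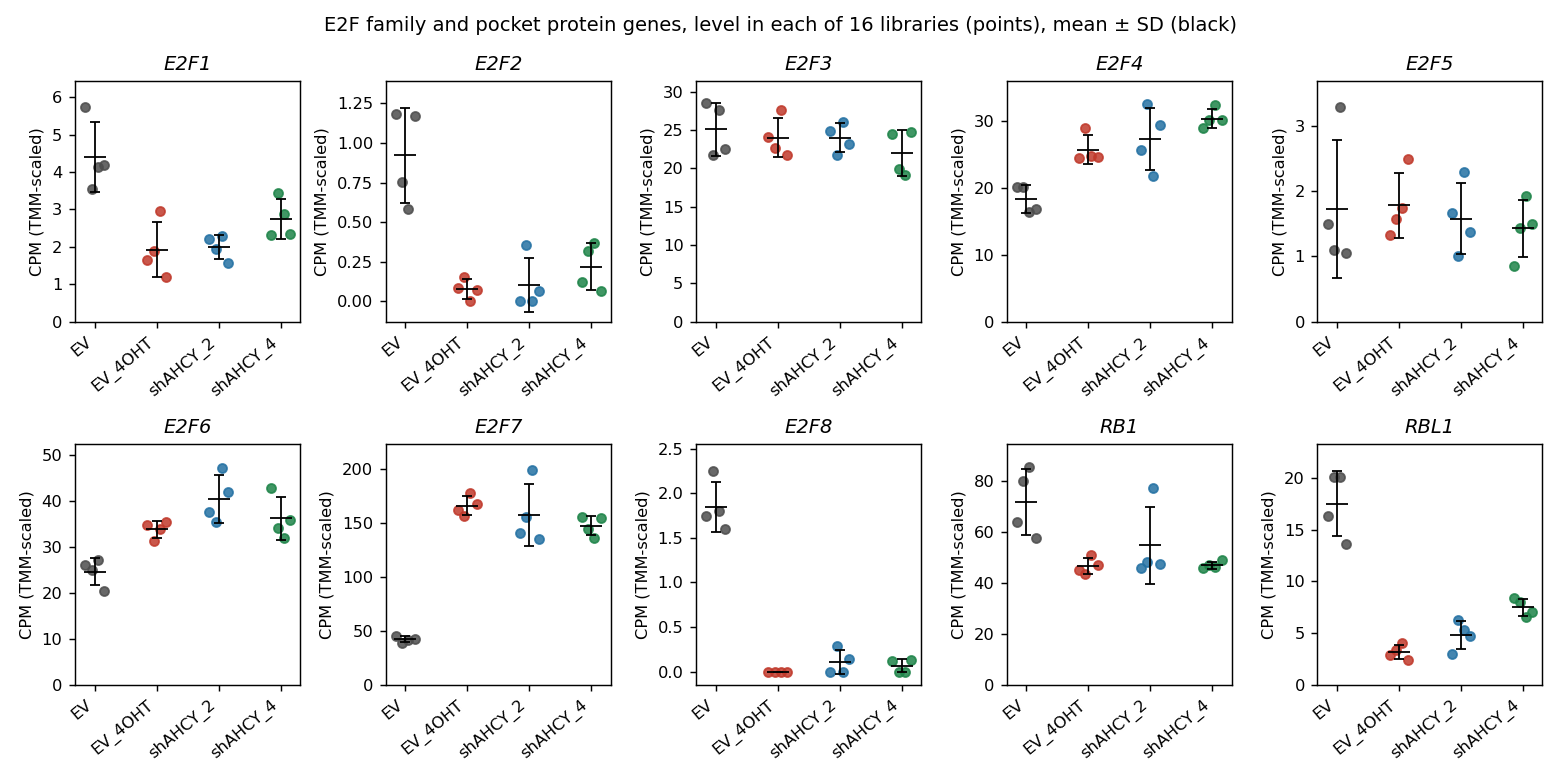
Level of each E2F family and pocket protein gene (y axis, CPM with TMM factors, linear, each panel with its own scale) in the 4 groups (x axis), with 1 point per library and the mean ± SD in black. E2F7 lies near 42 CPM in EV and between 135 and 199 CPM in all 12 libraries given 4OHT, and RBL1 is highest in EV, lowest in EV_4OHT and between them in shAHCY_4.

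Among the activators, E2F1 (ENSG00000101412), which drives entry into S phase, stood at 5.72, 3.55, 4.12 and 4.18 CPM in EV libraries 49 to 52. It stood at 1.66, 1.89, 2.95 and 1.20 CPM in EV_4OHT libraries 53 to 56. Every senescent library lay below every EV library, and the EV_4OHT mean was 43.8% of the EV mean. The difference was -1.18 ± 0.25 on the log2 scale (edgeR, adjusted p = 0.000374).

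E2F2 (ENSG00000007968) is an activator like E2F1 and had few reads. Its raw counts were 19, 11, 11 and 19 in EV and 1, 2, 0 and 1 in EV_4OHT. Pooled over the group, the senescent level was 8.29% of EV, with an exact 95% interval of 2.19% to 22.4% that covers counting error only. Without the low-count filter, edgeR's quasi-likelihood test gave E2F2 a difference of -3.43 ± 0.78 (adjusted p = 9.8e-05).

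E2F3 (ENSG00000112242), the third activator, was the most abundant of them and showed no called difference. It stood at 28.5, 21.7, 27.7 and 22.5 CPM in EV and at 24.1, 22.6, 27.6 and 21.7 CPM in EV_4OHT. These ranges overlapped almost fully, and the difference was -0.06 ± 0.12 (edgeR, adjusted p = 0.675; 95% limits -0.31 to 0.18). E2F1 and E2F3, both activators, therefore had intervals for the senescence difference that did not overlap, -1.69 to -0.66 for E2F1 against the one just given.

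Of the repressors, E2F4 (ENSG00000205250), which works chiefly with RBL1 and RBL2 in resting cells, stood at 20.2, 20.1, 16.4 and 16.8 CPM in EV. In EV_4OHT it stood at 24.4, 28.9, 24.8 and 24.6 CPM. All senescent libraries were higher than all EV libraries, by 0.48 ± 0.12 (edgeR, adjusted p = 0.00125). E2F6 (ENSG00000169016), which represses without binding pocket proteins, stood at 25.9, 24.9, 27.2 and 20.4 CPM in EV and 34.7, 31.3, 33.9 and 35.4 CPM in EV_4OHT. Its ranges did not overlap either, and the difference was 0.46 ± 0.11 (adjusted p = 0.00154).

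E2F5 (ENSG00000133740), the relative of E2F4, was a rare transcript at 1.73 ± 1.05 CPM in EV and 1.78 ± 0.50 CPM in EV_4OHT. The difference of 0.03 ± 0.36 (edgeR, adjusted p = 0.958) had wide limits of -0.72 to 0.77, so a change within them was not detectable with these libraries. EV library 51 stood at 3.28 CPM and the other EV libraries at 1.05 to 1.49 CPM. Leaving out single libraries gave differences of -0.17 to 0.55, none of them called. Of its exon bases, 969 (16.3%) overlap exons of C8orf59 on the opposite strand, a gene with 3813 counts over all libraries against 362 for E2F5. The library method does not mark strand, so E2F5 reads are uncertain.

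The largest difference upwards in the family was in E2F7 (ENSG00000165891), an atypical repressor that is known to be induced through p53 and to repress E2F1. Its level was 45.4, 38.6, 41.2 and 42.5 CPM in EV. It was 162, 157, 177 and 167 CPM in EV_4OHT. The groups were far apart, at 41.9 ± 2.79 against 166 ± 8.82 CPM, a 3.95-fold difference (1.98 ± 0.10 on the log2 scale; edgeR, adjusted p = 1.99e-13).

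E2F8 (ENSG00000129173), the other atypical member and a close relative of E2F7, went the other way. It had 28, 33, 34 and 26 counts in the EV libraries and none in any of the 4 EV_4OHT libraries. With the group's floor set at 3 counts in all, E2F8 was at least 32.4-fold lower in the senescent cells, a bound that takes the EV level as measured and leaves out its counting error. edgeR's quasi-likelihood test called it lower (adjusted p = 7.3e-07). E2F8 passed the low-count filter only through EV, the group where it is high, so this p-value adds no support beyond the counts themselves. The pair of atypical genes thus moved in opposite directions.

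RB1 (ENSG00000139687), the retinoblastoma protein gene, stood at 64.1, 80.3, 85.5 and 57.7 CPM in EV and at 45.1, 43.5, 51.1 and 47.2 CPM in EV_4OHT. The senescent libraries lay below all EV libraries, by -0.62 ± 0.14 (edgeR, adjusted p = 0.000679). RB1 has the lowest GC content of the 10 genes (37.3%), and with the GC trend of each library removed the difference was -0.48.

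RBL1 (ENSG00000080839), which binds E2F4 in cycling cells, fell much further than RB1. Its level was 16.3, 20.1, 20.1 and 13.6 CPM in EV and 2.83, 3.30, 4.02 and 2.41 CPM in EV_4OHT. The senescent mean was 17.9% of the EV mean, and no senescent library came near the lowest EV library. The difference was -2.47 ± 0.20 (edgeR, adjusted p = 4.8e-10). RBL2 (p130), the remaining pocket protein, is not among the 10 genes. It fell by 0.79 ± 0.11 on the log2 scale (adjusted p = 1.55e-06), from 34.5 ± 2.99 to 19.99 ± 2.80 CPM.

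The ranking of the genes, with levels divided by the length of the longest annotated transcript, changed accordingly. In EV, RB1 led at 15.0 ± 2.7 CPM per kilobase. E2F7 (7.31 ± 0.49), E2F6 (7.13 ± 0.85) and E2F4 (7.02 ± 0.79) followed and did not differ beyond their spread. Below them came E2F3 (5.28), RBL1 (3.09), E2F1 (1.76), E2F8 (0.525), E2F5 (0.343) and E2F2 (0.177). In EV_4OHT, E2F7 led at 28.9 ± 1.5 CPM per kilobase. E2F4 (9.82 ± 0.82), E2F6 (9.81 ± 0.53) and RB1 (9.75 ± 0.68) came next with overlapping spreads, ahead of E2F3 (5.06). E2F1 (0.769 ± 0.29) and RBL1 (0.552 ± 0.12) were again within their spread of each other, and E2F5 stood at 0.353.

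Summed over the 8 E2F genes, the level per length was 29.5 ± 2.29 CPM per kilobase in EV and 54.7 ± 1.94 in EV_4OHT. E2F7 made up 24.8% ± 1.77 of this sum in EV and 52.8% ± 1.14 in EV_4OHT. The activators together went from 24.4% ± 2.08 to 10.7% ± 1.16 and E2F4 to E2F6 from 49.1% ± 2.76 to 36.6% ± 1.76, although E2F3, E2F4, E2F5 and E2F6 did not fall. RNA shares say nothing of protein, and no protein was measured here.

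**Figure D2:**
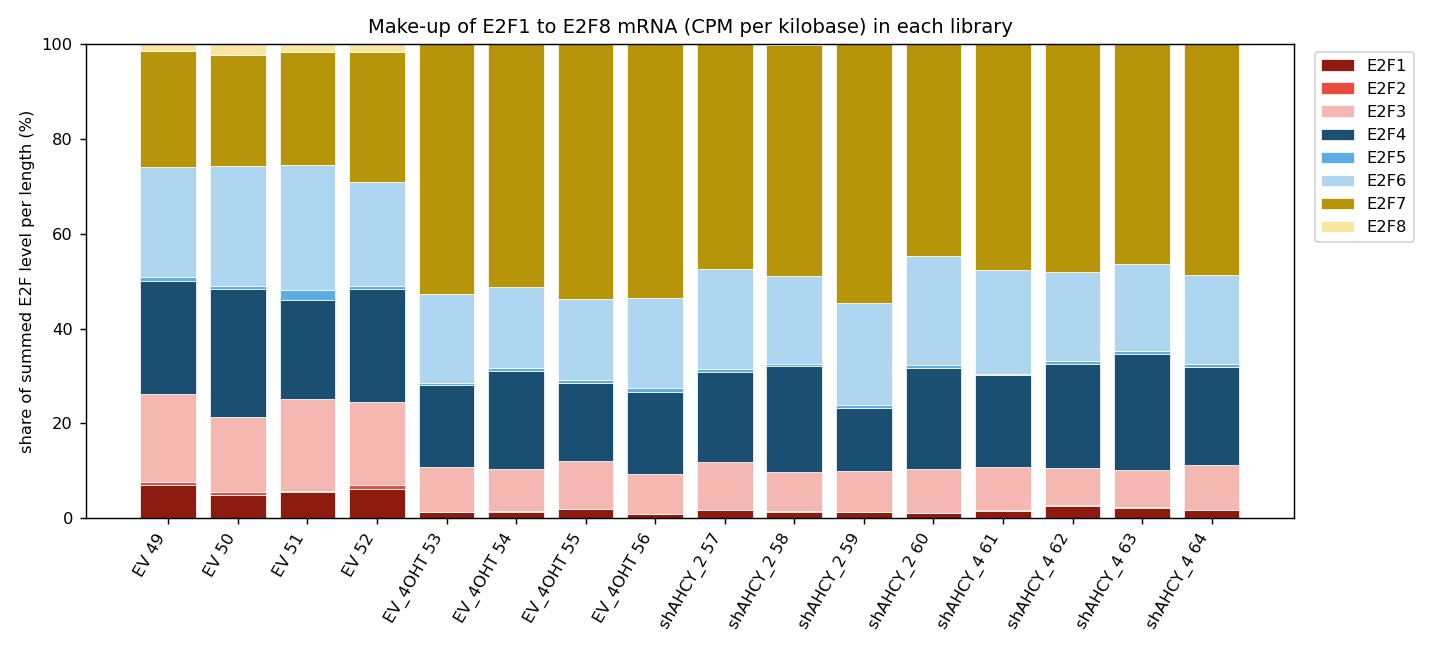
Share of each gene in the summed level of E2F1 to E2F8 (y axis, percent of CPM per kilobase) in each of the 16 libraries (x axis). E2F7 makes up between 23.5% and 27.4% of each EV bar and between 44.6% and 54.5% of every bar from cells given 4OHT.

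The knockdown comparisons set each hairpin group against EV_4OHT. They share the EV_4OHT libraries with each other and, in the opposite sense, with the senescence comparison, so a change that undoes the senescence difference is not independent of it; the levels against EV are given as well. For most of the family the hairpin groups stayed near the senescent level. In shAHCY_2, 0 of the 9 members tested were called by edgeR's quasi-likelihood test, and DESeq2 and limma-voom called 0 as well; of all genes tested, 6.98% were called, 3.91% higher and 3.07% lower. At an unadjusted p under 0.05 there were 3 members, E2F6, E2F8 and RBL1. In shAHCY_4, 1 of 9 was higher and 0 were lower, where 7.58% of all genes were higher and 6.86% lower, 14.4% together. The member called was RBL1.

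**Figure D3:**
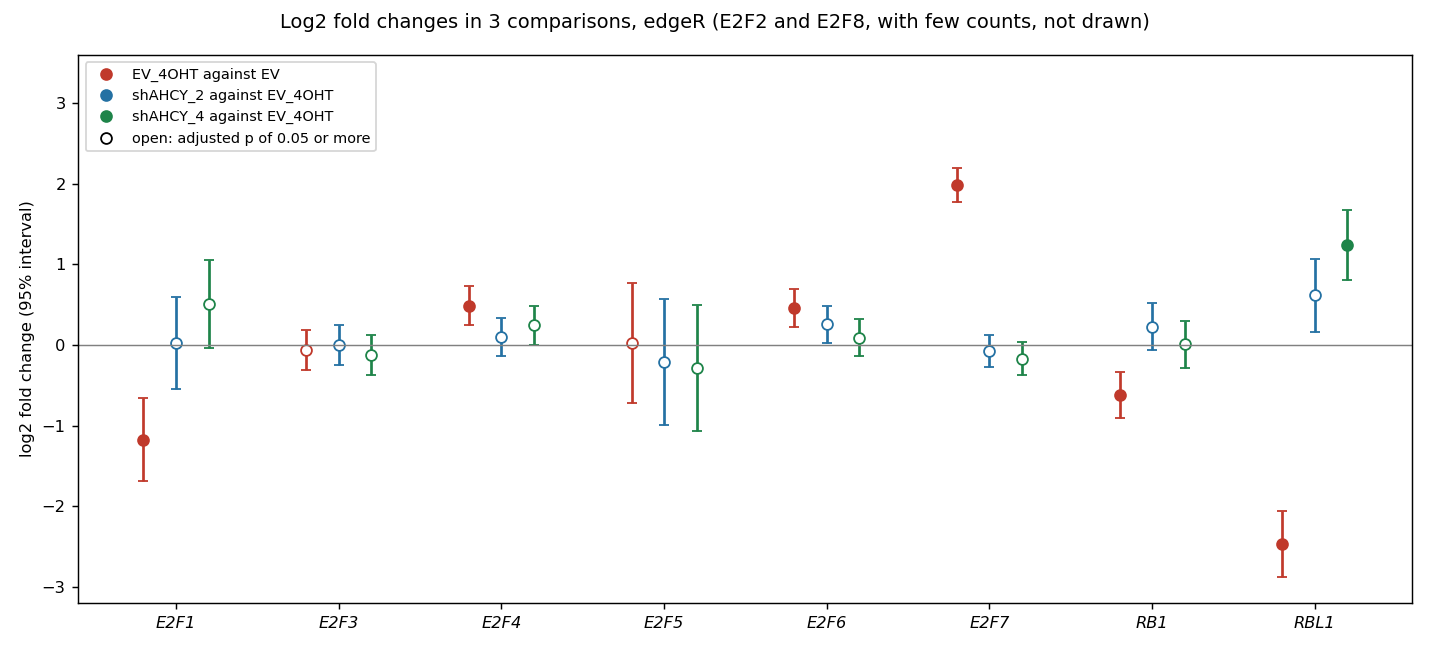
Log2 fold change (y axis) of 8 members in 3 comparisons (colours), with 95% intervals; filled points have an adjusted p under 0.05 by edgeR's quasi-likelihood test. E2F2 and E2F8 have too few counts to be drawn, and E2F7 and RBL1 show the largest senescence differences, 1.98 and -2.47.

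RBL1 stood at 2.96, 6.22, 5.29 and 4.71 CPM in shAHCY_2 libraries 57 to 60. It stood at 8.40, 7.97, 6.58 and 7.06 CPM in shAHCY_4 libraries 61 to 64. The shAHCY_4 libraries lay above all EV_4OHT and all shAHCY_2 libraries and below all EV libraries. Their mean of 7.50 ± 0.83 CPM was 42.8% of the EV mean, and the difference from EV_4OHT was 1.24 ± 0.21 (edgeR, adjusted p = 0.000267).

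In shAHCY_2, RBL1 averaged 4.797 ± 1.37 CPM, 27.3% of EV. Its difference from EV_4OHT was 0.61 ± 0.22 (edgeR, adjusted p = 0.0944; 95% limits 0.16 to 1.06), and library 57 alone lay within the EV_4OHT range. Without library 57 the difference was 0.78 and was called (adjusted p = 0.0286). Between the hairpins RBL1 differed by 0.63 ± 0.20 (adjusted p = 0.117), with ranges that did not overlap, as for 10.9% of all genes tested. With the GC trend removed this difference was 0.70 and was called (adjusted p = 0.0337).

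Relative to EV, RBL1 was lower in both hairpin groups, by -1.86 ± 0.19 in shAHCY_2 (edgeR, adjusted p = 3.34e-08) and by -1.23 ± 0.18 in shAHCY_4 (adjusted p = 6.16e-06). RBL2 gave a like order of levels at 23.0 ± 2.29 CPM in shAHCY_2 and 31.8 ± 1.15 CPM in shAHCY_4. It was higher than EV_4OHT in shAHCY_4, by 0.67 ± 0.11 (adjusted p = 0.000147), and was not called in shAHCY_2, at 0.20 ± 0.11 (adjusted p = 0.289). The RBL2 difference between the hairpins was 0.47 ± 0.11 (adjusted p = 0.0309), and 8 of 17 alternatives did not call it, among them leaving out any library of shAHCY_4 (adjusted p = 0.0527 to 0.109) and libraries 58, 59 or 60 of shAHCY_2 (0.0627 to 0.0805).

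E2F7 kept to the senescent level. It stood at 141, 155, 199 and 135 CPM in shAHCY_2 and 156, 144, 136 and 154 CPM in shAHCY_4. Each of these 8 libraries was far above the highest EV library. Library 59, the one that stood apart, held the highest value.

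Against EV_4OHT, E2F7 differed by -0.08 ± 0.10 in shAHCY_2 (edgeR, adjusted p = 0.69; 95% limits -0.28 to 0.12) and by -0.17 ± 0.10 in shAHCY_4 (adjusted p = 0.269; limits -0.37 to 0.03). All shAHCY_4 libraries lay just below all EV_4OHT libraries, as ranges were apart for 23.3% of all genes tested, and with these 2 groups alone in the model the difference of -0.18 was called (adjusted p = 0.0346). Against EV, E2F7 was higher by 1.91 ± 0.10 (adjusted p = 6.08e-13) and 1.81 ± 0.10 (adjusted p = 1.53e-12). Its share of the summed E2F level was 48.9% ± 4.17 in shAHCY_2 and 47.7% ± 0.90 in shAHCY_4.

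E2F8 had 6 counts in all of shAHCY_2, in 2 libraries, and 3 counts in all of shAHCY_4, in 2 libraries. These are 6.66% (95% interval 2.40% to 14.9%) and 3.30% (0.670% to 9.86%) of the EV level, by counting error only. Both groups were called lower than EV by edgeR (adjusted p = 1.86e-05 and 5.92e-06), calls that carry the limit from the low-count filter given above. The few counts did not allow the 3 groups given 4OHT to be separated: against EV_4OHT the adjusted p was 0.131 for shAHCY_2 and 0.24 for shAHCY_4. E2F2 had 0, 5, 0 and 1 counts in shAHCY_2 and 1, 4, 5 and 1 in shAHCY_4, or 13.4% (4.74% to 31.0%) and 24.4% (11.6% to 46.8%) of EV. Both intervals overlap that of EV_4OHT.

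E2F1 stood at 2.22, 1.93, 2.28 and 1.57 CPM in shAHCY_2 and 2.31, 3.43, 2.89 and 2.35 CPM in shAHCY_4. All shAHCY_4 libraries were above all shAHCY_2 libraries by a small margin, but library 55 of EV_4OHT, at 2.95 CPM, lay within their range. The differences from EV_4OHT were 0.03 ± 0.28 for shAHCY_2 (edgeR, adjusted p = 0.969; 95% limits -0.54 to 0.60) and 0.50 ± 0.26 for shAHCY_4 (adjusted p = 0.223; limits -0.04 to 1.05). Between the hairpins it was 0.48 ± 0.27 (adjusted p = 0.354). Against EV, E2F1 was lower by -1.15 ± 0.25 in shAHCY_2 (adjusted p = 0.000613) and by -0.67 ± 0.24 in shAHCY_4 (adjusted p = 0.0237). The latter was lost without EV library 49 (-0.55, adjusted p = 0.0794) and without shAHCY_4 library 61 (-0.61) or 64 (-0.60).

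E2F3 stood at 24.0 ± 1.89 CPM in shAHCY_2 and 22.05 ± 2.995 CPM in shAHCY_4. Neither differed from EV_4OHT by a called amount, with 95% limits of -0.26 to 0.24 and of -0.38 to 0.12. All 4 groups of E2F3 overlapped.

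E2F4 was highest in shAHCY_4, at 28.9, 30.05, 32.4 and 30.06 CPM. It was more spread in shAHCY_2, at 25.6, 32.5, 21.8 and 29.4 CPM, where library 59 was lowest. The shAHCY_4 difference from EV_4OHT was 0.24 ± 0.11 (edgeR, adjusted p = 0.172; 95% limits 0.00 to 0.48) and that of shAHCY_2 was 0.10 ± 0.12 (adjusted p = 0.674). Against EV, E2F4 was higher by 0.58 ± 0.12 in shAHCY_2 (adjusted p = 0.000251) and 0.73 ± 0.12 in shAHCY_4 (adjusted p = 1.72e-05).

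E2F6 stood at 37.6, 35.3, 47.2 and 41.9 CPM in shAHCY_2 and at 42.9, 34.0, 32.0 and 35.9 CPM in shAHCY_4. Its differences from EV_4OHT were 0.26 ± 0.11 (edgeR, adjusted p = 0.178; 95% limits 0.03 to 0.49) and 0.09 ± 0.11 (adjusted p = 0.655), so neither was called. Against EV, E2F6 was higher by 0.71 ± 0.11 (adjusted p = 1.54e-05) and 0.55 ± 0.11 (adjusted p = 0.000312). E2F5 remained rare at 1.58 ± 0.54 and 1.43 ± 0.44 CPM.

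RB1 stood at 46.0, 48.3, 77.5 and 47.6 CPM in shAHCY_2 and at 45.8, 47.0, 46.1 and 49.01 CPM in shAHCY_4. Apart from library 59, which reached the EV range, the other 7 hairpin libraries lay between 45.8 and 49.01 CPM, inside the EV_4OHT range. The shAHCY_2 difference from EV_4OHT was 0.23 ± 0.14 (edgeR, adjusted p = 0.366), or 0.02 without library 59 and 0.07 with the GC trend removed. For shAHCY_4 it was 0.01 ± 0.14 (adjusted p = 0.982; 95% limits -0.29 to 0.30). RB1 stayed below EV by -0.61 ± 0.14 in shAHCY_4 (adjusted p = 0.000873). In shAHCY_2 it was below EV by -0.40 ± 0.14 (adjusted p = 0.0221), which was -0.60 without library 59, and 6 of 17 alternatives did not call it, among them leaving out EV library 50 or 51 or shAHCY_2 library 57, 58 or 60.

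Against EV, both hairpin groups therefore had 3 members higher (E2F4, E2F6 and E2F7) and 4 lower (E2F1, E2F8, RB1 and RBL1) of 9 tested. E2F8 entered these tests only through its EV counts. The background was 24.5% of genes higher and 23.6% lower for shAHCY_2 (48.1% together), and 25.4% and 25.8% for shAHCY_4 (51.2% together). Between the hairpins 0 of 9 members were called by edgeR's quasi-likelihood test, and 0 by DESeq2 or limma-voom, where 1.24% of all genes were called (0.54% higher, 0.702% lower). At an unadjusted p under 0.05 there was 1 member, RBL1, with 95% limits of 0.21 to 1.04.

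Replication genes that the family acts on were lower in senescence and less so under both hairpins. Of 38 measured E2F target genes of DNA replication, such as the MCM helicase subunits and the enzymes of nucleotide supply, 37 were lower in EV_4OHT than in EV. That is 97.4%, against 26.8% of all genes tested, and the median difference was -1.73 against -0.02 over all genes tested. Against EV_4OHT, 25 of the 38 were higher in shAHCY_2 and 27 in shAHCY_4, with 0 lower in either and medians of 0.64 and 0.68 against 0.01 over all genes. These are 65.8% and 71.1%, where 3.91% and 7.58% of all genes tested were higher. Between the hairpins edgeR called 0 of the 38, where 1.24% of all genes tested were called, with 7 at an unadjusted p under 0.05. DESeq2 called 2 of the 38 and the edgeR fit with the GC trend removed called 3. Against EV, 36 of the 38 remained lower in each hairpin group, or 94.7%, where 23.6% (shAHCY_2) and 25.8% (shAHCY_4) of all genes tested were lower.

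RRM2, the small subunit of ribonucleotide reductase, stood at 251 ± 4.27 CPM in EV, 34.2 ± 1.93 in EV_4OHT, 114 ± 3.52 in shAHCY_2 and 103 ± 7.29 in shAHCY_4. TK1, thymidine kinase, stood at 123 ± 11.2, 10.2 ± 2.44, 30.1 ± 4.13 and 34.4 ± 0.69 CPM in the same order. MCM6, a subunit of the replicative helicase, stood at 49.8 ± 1.51, 11.5 ± 0.60, 19.5 ± 1.88 and 21.0 ± 1.24 CPM. Each was called lower in EV_4OHT than in EV and higher in both hairpin groups than in EV_4OHT. For shAHCY_2 and shAHCY_4 their differences from EV_4OHT were 1.73 ± 0.07 and 1.59 ± 0.07 for RRM2, 1.56 ± 0.13 and 1.75 ± 0.13 for TK1, and 0.76 ± 0.10 and 0.86 ± 0.10 for MCM6. In the same comparisons the activator genes E2F1 and E2F3 and the repressor genes E2F4, E2F6 and E2F7 were not called. TYMS, another of these targets, fell by 2.62 ± 0.10 in senescence (edgeR, adjusted p = 1.61e-15). Its call as higher in shAHCY_4 than in EV_4OHT was lost in most alternatives, among them limma-voom (0.33, adjusted p = 0.0755). Leaving out any library of EV_4OHT also lost it (edgeR, adjusted p = 0.0636 to 0.156). Between the hairpins TYMS was called lower in shAHCY_4 by DESeq2 (-0.39, adjusted p = 0.0181). The edgeR fit with the GC trend removed called it too (-0.42, adjusted p = 0.0236).

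**Figure D4:**
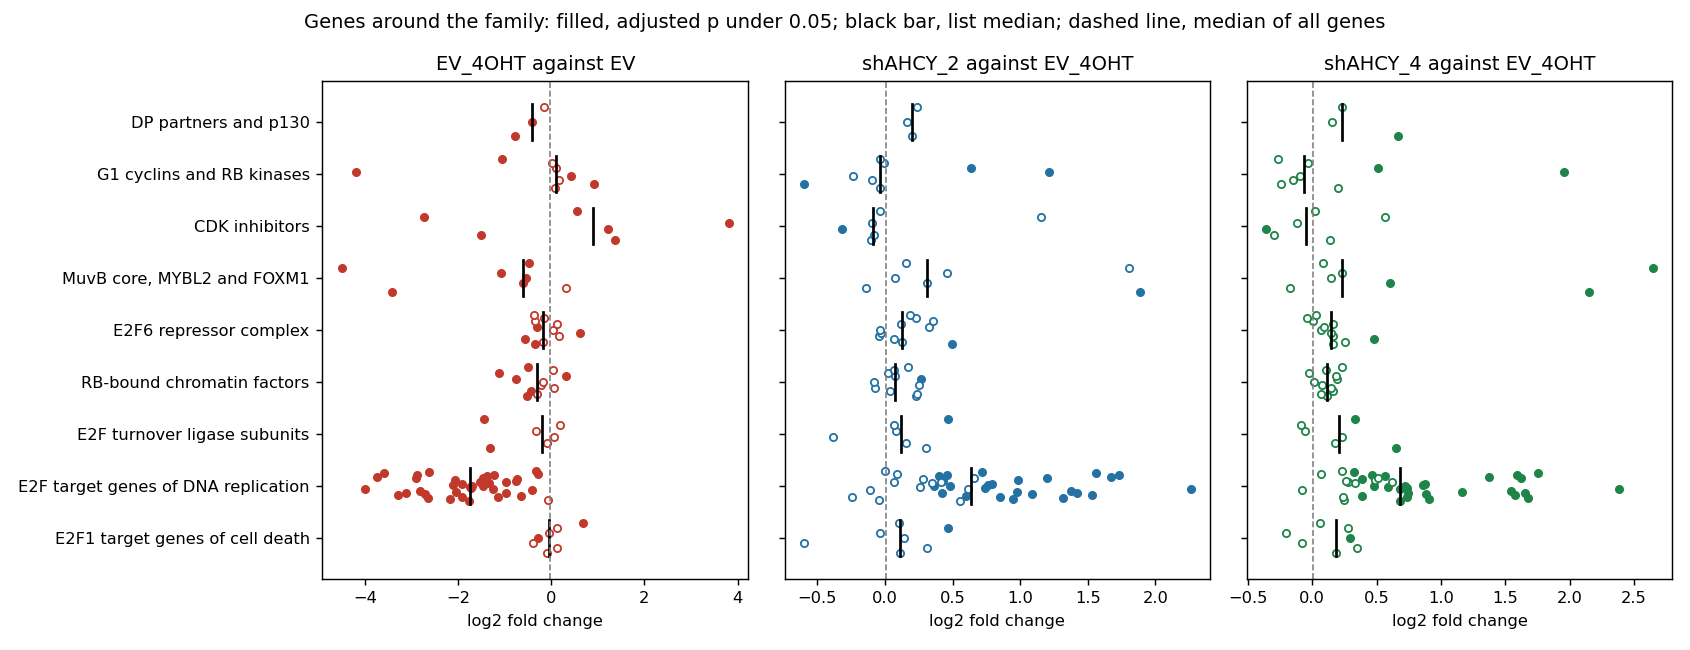
Log2 fold change (x axis) of each gene (points, filled where edgeR's adjusted p is under 0.05) in 9 lists of genes around the family (y axis), for 3 comparisons (panels, each with its own scale); the black bar is the list median and the dashed line the median of all genes. The E2F target genes of DNA replication have medians of -1.73, 0.64 and 0.68 from left to right.

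Upstream of the pocket proteins, 2 of 8 G1 cyclin and RB kinase genes were higher and 2 lower in EV_4OHT, shares near the 26.7% and 26.8% of all genes tested. Against EV_4OHT, 2 were higher and 1 lower in shAHCY_2, and 2 higher and 0 lower in shAHCY_4. The shares over all genes tested were 3.91% higher and 3.07% lower in shAHCY_2, and 7.58% and 6.86% in shAHCY_4. CDK2 stood at 64.1 ± 4.18 CPM in EV, 68.7 ± 3.38 in EV_4OHT, 107 ± 12.1 in shAHCY_2 and 98.2 ± 4.64 in shAHCY_4. CCND2 stood at 30.2 ± 1.57, 56.8 ± 5.11, 37.7 ± 8.04 and 48.1 ± 1.68 CPM in the same order. CCNE2, a cyclin E gene and itself an E2F target, was 12.7 ± 3.17 CPM in EV and 0.675 ± 0.379 in EV_4OHT, a difference of -4.19 ± 0.29 (edgeR, adjusted p = 4.19e-11). In shAHCY_4 it was 2.70 ± 0.47 CPM, higher than EV_4OHT by 1.96 ± 0.33 (adjusted p = 0.000309). In shAHCY_2 it was 1.66 ± 0.52 CPM, at 1.21 ± 0.36 (adjusted p = 0.0452), a call that 8 of 17 alternatives did not make, with adjusted p up to 0.137 when library 53 was left out. CDK6, a cyclin D kinase, fell by 1.05 ± 0.09 in senescence (adjusted p = 9.6e-10). It differed from EV_4OHT by -0.04 ± 0.09 in shAHCY_2 (adjusted p = 0.842) and by -0.26 ± 0.09 in shAHCY_4 (adjusted p = 0.0507). The latter missed the threshold but was called in 8 of 17 alternatives, among them DESeq2 (-0.27, adjusted p = 0.0263), limma-voom (0.0459), the fit with the GC trend removed (0.0108) and leaving out library 61 (0.0234).

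Of 6 CDK inhibitor genes tested, 4 rose in senescence, among them CDKN2B by 3.81 ± 0.12, CDKN1A by 1.36 ± 0.08 and CDKN2A by 1.22 ± 0.09. The list had 66.7% higher and 33.3% lower, where 26.7% and 26.8% of all genes tested were. CDKN1B, which encodes p27, fell by 1.498 ± 0.203 (edgeR, adjusted p = 1.76e-06) and CDKN2C, which encodes p18, fell by 2.72 ± 0.44 (adjusted p = 1.73e-05). CDKN2B, the p15 inhibitor, was at 219 ± 6.23 CPM in EV_4OHT, 205 ± 43.9 in shAHCY_2 and 202 ± 13.7 in shAHCY_4, with no called difference. Without library 59, the shAHCY_2 difference of -0.25 was called (adjusted p = 0.0327). CDKN2A, which encodes p16 and ARF, was lower than EV_4OHT by -0.36 ± 0.09 in shAHCY_4 (edgeR, adjusted p = 0.00718). In shAHCY_2 it differed by -0.32 ± 0.09 (adjusted p = 0.0286), and 8 of 17 alternatives did not call this.

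Among 7 genes of the MuvB core with its partners MYBL2 and FOXM1, which drive the later cell cycle genes, 6 were lower in senescence. That is 85.7%, where 26.8% of all genes tested were lower. MYBL2, among the 6, had 24 to 35 counts per EV library and 4 in all of EV_4OHT. It passed the low-count filter only through its EV counts, so its call adds no support beyond them. FOXM1 stood at 14.03 ± 2.49 CPM in EV and 1.31 ± 0.35 in EV_4OHT. It was 4.82 ± 0.58 CPM in shAHCY_2 and 5.83 ± 1.11 in shAHCY_4, higher than EV_4OHT by 1.89 ± 0.23 (edgeR, adjusted p = 7.43e-06) and 2.15 ± 0.22 (adjusted p = 5.26e-07). In this list 1 of 7 genes was higher in shAHCY_2 and 3 in shAHCY_4, where 3.91% and 7.58% of all genes tested were higher. MYBL2 was among these 3, a call lost without library 53, 54, 56 or 62 (edgeR, adjusted p = 0.0594 to 0.0856).

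Partners of the family gave mixed results. TFDP1, the main DP subunit with which E2F1 to E2F6 bind DNA, fell by 0.42 ± 0.09 in senescence (edgeR, adjusted p = 0.000524), and TFDP2 differed by -0.16 ± 0.09 (adjusted p = 0.124). Neither was called in the hairpin groups against EV_4OHT. TFDP2 was called lower in senescence in 3 of 17 alternatives (adjusted p = 0.0101 to 0.0484, the last without library 49). It was called higher in shAHCY_4 than in EV_4OHT with the GC trend removed (0.25, adjusted p = 0.0305) and with library totals alone (0.29, adjusted p = 0.0269). Of 11 genes of the E2F6 repressor complex, 1 was higher and 3 lower in senescence. The 27.3% lower is near the 26.8% of all genes tested, and the 9.09% higher lies below their 26.7%. MAX was higher by 0.62 ± 0.07. Among the lower genes, CBX3 (edgeR, adjusted p = 0.0453) was not called by DESeq2 (0.0504) or limma-voom (0.0535). PCGF6 (edgeR, adjusted p = 0.0414) was not called by edgeR with the GC trend removed (0.0596) or without the low-count filter (0.17). Leaving out library 50, 51, 53 or 54 also lost the calls of CBX3 and PCGF6. Of 11 chromatin factors that bind RB1, 1 was higher and 5 lower, among them SMARCA2 by -1.12 ± 0.19, RBBP7 by -0.75 ± 0.07 and DNMT1 by -0.44 ± 0.10. That is 9.09% higher and 45.5% lower, against the same 26.7% and 26.8% of all genes tested. In the hairpin groups each of these 2 lists had 1 gene higher or none, and 0 lower. Of all genes tested, 3.91% were higher and 3.07% lower in shAHCY_2, and 7.58% and 6.86% in shAHCY_4.

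Of 6 ubiquitin ligase genes that turn E2F and cell cycle proteins over, SKP2 and CCNF were lower in senescence, by -1.45 ± 0.08 and -1.31 ± 0.13. Their share of 33.3% is not far from the 26.8% of all genes tested. SKP2 was higher than EV_4OHT by 0.47 ± 0.09 in shAHCY_2 (edgeR, adjusted p = 0.00111) and by 0.33 ± 0.09 in shAHCY_4 (adjusted p = 0.0113), where the call was lost without the low-count filter (adjusted p = 0.0957) and without library 64 (0.05). CCNF was higher by 0.66 ± 0.13 in shAHCY_4 (adjusted p = 0.00128); in shAHCY_2 it differed by 0.30 ± 0.13 (adjusted p = 0.174), called with the GC trend removed (0.37, adjusted p = 0.0256). Among 7 tested E2F1 target genes of cell death, 1 was higher and 1 lower in senescence, or 14.3% each, below the 26.7% and 26.8% of all genes tested. PMAIP1, which encodes NOXA, was the higher one at 0.68 ± 0.10, and neither hairpin group differed from EV_4OHT in it by a called amount.

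Genes whose log2 CPM ran most like each member over the 16 libraries are given as a description; the points share 4 groups and their libraries, and no test is attached. For E2F7 they were MME (Pearson r = 0.995), CDKN2B (0.994) and SLC16A6 (0.993), among 8539 genes compared. Over the 12 libraries given 4OHT alone, these values were 0.902, 0.803 and 0.708. For RBL1 they were FAM111A (0.964), LBR (0.961) and ATAD2 (0.956), with 0.872, 0.866 and 0.885 over the 12. RB1 ran most like XPO1 (0.972), SH3BGRL (0.968) and TASOR (0.963), with 0.955, 0.923 and 0.94 over the 12, among which library 59 was far from the rest in RB1.

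E2F1 ran most like TMEM94 (0.92), E2F4 like EIF2B4 (0.963), E2F6 like PKIA (0.945) and E2F8 like NNT (0.973). Over the 12 libraries given 4OHT these values were 0.86, 0.868, 0.758 and 0.696. E2F8 had few or no counts in those 12, so its value over all 16 mainly sets EV against the rest. E2F3, which was called in none of the comparisons, had lower values, with ZNF548 at 0.78 (0.8 over the 12), and E2F5 had IGDCC4 at 0.865 (0.838 over the 12).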

How the data were processed

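The deposited table, made by the authors, held whole-number counts per Ensembl gene for 16 libraries. Per the labels' protocols, Trizol and column purification were followed by Smart-Seq2 library preparation (Nextera XT). Smart-Seq2 does not mark strand. Per the submitters' processing notes, CASAVA 1.8.2, TopHat2 2.0.11 and featureCounts 1.18.0 were used with hg19; for the annotation release and multi-mapping rule, nothing is given in the sources used here. Library totals were 8236199 to 18235787 counts.

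Genes passing filterByExpr (13526) were fitted in 1 edgeR 4.0.16 quasi-likelihood model over all 16 libraries (R 4.3.3, TMM factors, a mean per group), with 6 pairwise comparisons, two-sided tests and Benjamini-Hochberg adjustment over all genes tested. The biological coefficient of variation was 11.9%. Alternatives were RLE and upper-quartile factors, library totals, DESeq2 1.42.0, limma-voom (limma 3.58.1), dropping the filter, requiring 10 counts in 8 libraries, fitting the compared groups alone, removal of each library's GC trend, and leaving out each library. The count of E2F target genes under each alternative was added after the data were seen. The model was tested on simulated counts.

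Named genes are the 10 members, AHCY, RBL2, TFDP1 and TFDP2, up to 4 genes per list with the smallest adjusted p in EV_4OHT against EV, any gene of a list of 8 or fewer, and the 3 genes with the highest Pearson r per tested member (mean log2 CPM of at least 3). The members and lists were chosen with earlier results of these data known. Per-length levels used the longest GENCODE transcript. Promoter sequences came from RefSeq (GRCh38.p14), in which 8 of the 10 members had a window. Of 39 E2F target genes listed, 38 matched.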

Additional observations from a re-analysis of the deposited data

Results flagged for a closer look

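Of 52 combinations of a gene and a group of 4 libraries, 3 had 1 library far from the others, by a rule on the gap to the nearest library that chance meets in about 1 of 20 groups. E2F4 was at 28.9 CPM in EV_4OHT library 54 against 24.4 to 24.8 CPM in the other libraries of the group. RB1 was at 77.5 CPM in shAHCY_2 library 59 against 46.0 to 48.3 CPM in the others. RBL2 was at 26.5 CPM in shAHCY_2 library 57 against 21.7 to 22.0 CPM. The hairpins differed by a called amount in RBL2, by 0.47 (edgeR, adjusted p = 0.0309), and in EHMT2, a histone methyltransferase of the E2F6 complex list, by 0.41 (adjusted p = 0.0437). The EHMT2 call was not made by 12 of 17 alternatives, among them leaving out any 1 of the 8 hairpin libraries (adjusted p = 0.0505 to 0.137).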

How the results depend on the processing

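Of 909 alternative values for 54 results of single members (9 genes in 6 comparisons), 897 kept their call, 9 lost the call, 3 gained it and 0 reversed; 49 results had no change of call under any alternative. The lost calls were E2F1 in shAHCY_4 against EV and RB1 in shAHCY_2 against EV, and those gained were RBL1 in shAHCY_2 against EV_4OHT and between the hairpins, and E2F7 in shAHCY_4 against EV_4OHT, with values given above. E2F target genes higher than EV_4OHT numbered 21 to 30 in shAHCY_2 and 22 to 32 in shAHCY_4 over all alternatives. In counts of members, shAHCY_2 against EV_4OHT went from 0 higher to 1 without library 57 (range 0 to 1 over libraries left out), shAHCY_4 against shAHCY_2 from 0 higher to 1 with GC removed, and shAHCY_4 against EV_4OHT from 0 lower to 1 with only these groups. E2F target genes between the hairpins went from 0 to 1 higher and 1 lower with DESeq2, and to 2 higher and 1 lower with GC removed. Of all genes, shAHCY_4 against EV_4OHT had 1025 higher (1546 with GC removed, 1577 with only these groups, 679 to 953 leaving out libraries, lowest without library 56) and 928 lower (1559 with only these groups). shAHCY_2 against EV_4OHT had 529 higher (349 to 474 leaving out libraries, lowest without 55) and 415 lower (628 with GC removed, 273 to 375 leaving out libraries, lowest without 54). Between the hairpins there were 73 higher (244 with DESeq2, 324 with GC removed, 123 without filter, 31 with only these groups, 28 to 85 leaving out libraries) and 95 lower (237, 291, 430, 47 and 38 to 71 in the same order), moving by over 1.5 times without 58, 62, 63 or 64 for both directions, and 59 or 60 for lower genes. The cause was not tested, save that fewer libraries or other genes enter some of these fits. No paired analysis was possible because replicate numbers 49 to 64 are not shared between groups. Depth limits E2F2, E2F5 and E2F8, whose counts were too few to separate the groups given 4OHT.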
